A study of Mus musculus with 39 samples.

Results

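The 10 genes described here belong to the stress response of the endoplasmic reticulum: Hspa5, Hsp90b1, Calr, Pdia4, Dnajb9, Sdf2l1, Herpud1, Xbp1, Atf4 and Ddit3. They were chosen by name, through the gene symbol that the series' table gives for each probe. All 10 genes were on the array, with 14 probes among 40628 probes and 29411 gene symbols in all, and all 10 passed the filter on dim probes. Hspa5 drew attention because its level was lower in one diet group, HF20, than in another, HFC. That difference is therefore given below as a description without a test, and so are the values of the other genes between those groups.

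The endoplasmic reticulum folds proteins that a cell secretes or places in its membranes. When unfolded proteins build up there, the sensors Ire1 (gene Ern1), Perk (gene Eif2ak3) and Atf6 switch on the unfolded protein response, which raises chaperones, degrades misfolded proteins and, through Atf4, changes amino acid metabolism. Obesity and high fat feeding are known settings of this response in fat and in macrophages.

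RNA of stromal vascular cells of brown fat from C57BL/6J mice, which the labels call infiltrating macrophages, was hybridised to Agilent arrays of 1 colour. There was 1 array for each diet and time label, 39 in all. Mice entered 5 diets after weaning, at 3 to 4 weeks of age, with 30 animals a group, and 5 animals of each group were killed every 3 weeks. LFC was the low fat diet, with 10% of calories from fat (10 arrays). HFC was the diet high in fat and sucrose, with 60% of calories from fat (11 arrays). HF5, HF20 and HF75 were the HFC diet with 5, 20 or 75 µg of KAL-1, an aqueous plant formulation (6 arrays each), so that all 3 dose groups carried the high fat diet too. Time labels were Day 1, 6, 10 and 14 and Week 0, 3, 6, 9, 12, 15 and 18, with weeks counted from Day 14. LFC had no Week 6 array, and the doses had only Week 3 to Week 18. The labels do not say whether an array held 1 animal or a pool, so the spread between arrays, which differ in time as well, is the only error available.

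A level here is the log2 of a probe's processed signal minus the log2 75th percentile of its array. A level of 0 thus equals the spot at that percentile, and a difference of 1 is a doubling. Levels compare arrays for 1 gene and not 1 gene with another. Each gene is given by its brightest probe. RNA came from mixed cells, so fewer cells of a type and less RNA per cell cannot be told apart.

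Some arrays stood apart. The HF20 Week 15 array had 71.4% of its spots flagged as outliers by the scanner software, the HF5 Week 12 array 18.6% and the HFC Week 12 array 11.1%, against at most 2.19% on every other array. Flagged spots were dropped, so Hsp90b1, Pdia4, Xbp1 and Ddit3 have no value on the HF20 Week 15 array. On the LFC Day 10 and HFC Week 12 arrays Ucp1, the uncoupling protein that defines brown fat cells, was at -3.16 and -3.18, against 1.48 to 8.82 elsewhere, and the mean of 4 mesothelial markers was at 1.04 and 1.16, against -7.52 to -2.59 elsewhere. The labelled cell type was mixed: all 8 macrophage markers were well above background on most arrays of every diet, with array means from -1.33 to 2.58, and the means of 5 fibroblast markers (2.11 to 6.26) and 6 fat cell markers (0.57 to 6.09) were higher than 0 on all arrays. The titles of 9 arrays hold BA or BAT, HFC Day 1 and LFC Day 6 among them. Later ones were HF5 and HFC Week 9, LFC and HF20 Week 12, HF5 and HF75 Week 15, and LFC Week 18. On these later arrays the mean of 5 neutrophil markers was -4.19 to -1.58. It was -4.78 on the HFC Week 6 array and -0.46 to 5.48 on the rest. Gaps within a label can thus set unlike arrays against each other. At Day 14 the LFC and HFC labels of the arrays and of the series' table go against each other, and the HF20 Week 12 array carries a feeding label of the high fat diet alone beside a title and source of HF20.

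The control regions of these genes are shown first, because 3 of the 10 genes share a short element through which the unfolded protein response is known to act, and Herpud1 holds a variant of it. The endoplasmic reticulum stress element (ERSE) was searched for as CCAAT and CCACG with 9 bases of any kind between them, and its variant ERSE-II as ATTGG and CCACG with 1 base between them, on both strands of the RefSeq promoters (GRCm38.p6), from 250 bases before to 50 bases after each start. ERSE was found in 39 of 32817 promoters (0.119%), among them those of Hspa5, Hsp90b1 and Calr. ERSE-II was found in 12 promoters (0.0366%), among them that of Herpud1. The stretches below end before the transcription start, run 5′ to 3′ along the gene, and have these elements in capitals, which read in reverse complement where the element lies on the opposite strand (Calr, and the one of Hsp90b1 nearer the start).
Hspa5 (chr2:34771950-34772079, + strand): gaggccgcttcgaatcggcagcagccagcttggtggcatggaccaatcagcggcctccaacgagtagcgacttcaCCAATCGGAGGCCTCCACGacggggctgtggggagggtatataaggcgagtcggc
Hsp90b1 (chr10:86705525-86705664, - strand): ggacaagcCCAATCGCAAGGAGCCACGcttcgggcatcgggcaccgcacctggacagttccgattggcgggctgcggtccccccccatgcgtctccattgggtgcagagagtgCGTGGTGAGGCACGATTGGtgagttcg
Calr (chr8:84847032-84847121, - strand): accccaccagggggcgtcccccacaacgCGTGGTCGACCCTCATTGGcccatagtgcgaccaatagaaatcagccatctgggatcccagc
Herpud1 (chr8:94386349-94386418, + strand): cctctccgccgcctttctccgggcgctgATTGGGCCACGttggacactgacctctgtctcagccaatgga

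The element of Hspa5 begins 65 bases before the start, and that of Herpud1 52 bases before it. Hsp90b1 held 2 elements, beginning 212 and 107 bases before the start, and Calr held 1 at 162 bases. The core of another element, TGACGTGG, was in 0.676% of promoters and in none of the 10 genes. An element that Atf4 is known to bind, searched for as TGATGNAA, was in 3.97% of promoters and, among the 10, only in that of Herpud1. A match is a run of letters in this window and no measure of binding.

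Hspa5 encodes BiP, the Hsp70 chaperone of the endoplasmic reticulum lumen that also holds the stress sensors inactive. It was well above background on all 39 arrays, and no spot was saturated. In LFC its level ran from 4.33 over a median of 5.17 to 6.20, and in HFC from 3.63 over 4.98 to 6.01. In HF5 the lowest, median and highest levels were 3.26, 5.24 and 5.40. In HF20 they were 1.49, 3.95 and 4.86, and in HF75 they were 3.57, 4.45 and 5.03. HF20 thus had the lowest median and HF75 the next, while the ranges of all 5 diets overlapped. The SDs within diets ran from 0.60 to 1.29. That was more than any step between neighbouring medians when ordered, so no neighbours differed beyond their spread. LFC and HFC include labels before Week 3, which the doses lack. Over Weeks 3 to 18 the LFC levels were 4.95, 5.60 and 6.20 at lowest, median and highest, and those of HFC 4.49, 4.89 and 6.01. The lowest LFC array of those weeks lay above the highest HF20 array, which was that of Week 6, where LFC had no array. Hspa5 was chosen through the HF20 arrays, and the share of all probes without overlap was not computed, so this is a description only.

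**Figure D1:**
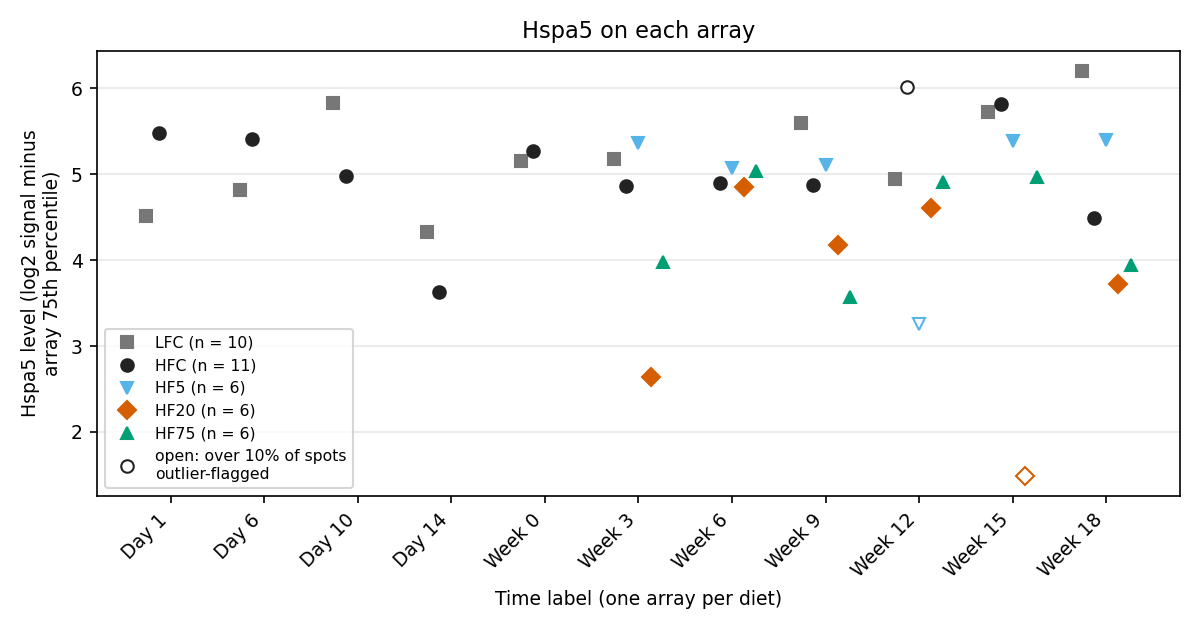
Hspa5 level (log2 signal minus the array's 75th percentile, y axis) on each of the 39 arrays by time label (x axis), with 1 symbol per diet and open symbols for the 3 arrays with over 10% of spots flagged as outliers. HF20 lies below HFC at each of the 6 shared labels, widely at Week 3 and Week 15 and by 0.04 at Week 6.

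Label by label, HF20 lay below HFC at 6 of 6 time labels. At Week 3 the HF20 array was at 2.64 and the HFC array at 4.86. At Week 6 they were at 4.86 and 4.90, and at Week 9 at 4.18 and 4.87. The gap was thus wide at Week 3 and small at Week 6, each time between single arrays. At Week 12 the levels were 4.61 in HF20 and 6.01 in HFC, at Week 15 they were 1.49 and 5.82, and at Week 18 they were 3.72 and 4.49. The gaps came to -2.22, -0.04, -0.70, -1.40, -4.32 and -0.77 in the order of the weeks. Of all probes with a value at every one of these labels, 1.14% were lower in HF20 at each label, and without Week 15 it was 1.25%; since this contrast chose Hspa5, the shares are background only. HF20 and HFC arrays were scanned on the same day at Weeks 6, 12 and 15, whose gaps are the smallest and 2 of the 3 widest.

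The fitted difference of Hspa5, HF20 minus HFC with the time labels as a block, was -1.68 (SE 0.47). Part of it came from the Week 15 array. Without that array the difference was -1.17, and without the 3 arrays with over 10% flagged spots it was -1.09. Leaving out the LFC Day 10 array as well, so that both arrays with little Ucp1 were gone, gave -1.12. Against the other doses the fitted difference of HF20 was -1.35 (SE 0.50) from HF5 and -0.82 (SE 0.50) from HF75, which rest on the same HF20 arrays. HF20 was lower than HF5 at 5 of 6 labels, lower than HF75 at 5 of 6, and lower than LFC at 5 of 5. Of all probes with a value at every label, 9.94% and 9.88% were lower than HF5 and HF75 at 5 or more of the 6 labels, and 6.15% were lower than LFC at all 5.

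Other chaperones and folding enzymes of the endoplasmic reticulum lumen shared the direction more than the size. Calr encodes calreticulin, a lectin chaperone that binds calcium. Its HF20 levels were 0.30, 2.56 and 2.91 at lowest, median and highest, and those of HFC over Weeks 3 to 18 were 2.43, 3.01 and 3.95. The fitted difference was -0.83 (SE 0.39), and HF20 was lower at 5 of 6 labels. At Week 15 the gap was -2.97, and without that array the fitted difference was -0.34, so the difference of Calr lay for the most part on 1 array. A dimmer probe of Calr gave -0.05 (SE 0.46).

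Hsp90b1, the Hsp90 chaperone of the lumen (Grp94), ran from 3.77 over 4.24 to 5.01 on the 5 HF20 arrays that measured it. Over Weeks 3 to 18 HFC ran from 4.31 over 5.01 to 5.58, so the HF20 median lay below the lowest HFC array. The fitted difference of Hsp90b1 was -0.37 (SE 0.37), with HF20 lower at 4 of 5 labels. A dimmer probe of this gene gave -0.86 (SE 0.54). Pdia4, a disulfide isomerase, differed by -0.18 (SE 0.46) and was lower at 3 of 5 labels. Sdf2l1, a soluble protein that works with the J proteins of the lumen, differed by -0.24 (SE 0.60), with gaps from -2.61 at Week 12 to 3.20 at Week 9. Dnajb9 (ERdj4), a J protein that works with BiP and restrains Ire1, differed by -0.44 (SE 0.35), and its dimmer probes by -1.20 (SE 0.55) and -0.52 (SE 0.54). At Week 15, where the gap of Hspa5 was -4.32, Dnajb9 had one of only -0.09. The fitted difference of Hspa5 was larger than that of each of these chaperones.

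Herpud1, a membrane protein of the degradation pathway, came nearest to Hspa5. Its levels in HF20 were 2.43 at Week 3, 2.71 at Week 6, 1.66 at Week 9, 3.21 at Week 12, -0.14 at Week 15 and 1.73 at Week 18. HFC stood at 2.96, 3.02, 3.35, 3.72, 3.03 and 2.34 at the same labels, above HF20 at 6 of 6. Apart from Hspa5 it was the only one of the 10 genes that was lower at every label, out of 6 genes with a value at all of them. The fitted difference was -0.999 (SE 0.47). It was -0.47 without the Week 15 array and -0.36 without the 3 arrays with many flagged spots.

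The regulators differed less. Xbp1, whose spliced RNA makes a factor that raises chaperones, differed by -0.19 (SE 0.45), though the arrays do not tell its spliced from its unspliced form. Atf4, the factor of the Perk branch, differed by -0.27 (SE 0.56), and Ddit3 (CHOP), a factor linked to cell death under stress, by -0.32 (SE 0.32). In HF20 the level of Atf4 ran from -0.52 over 0.94 to 1.08. But for the lowest array this lay within the HFC range over Weeks 3 to 18, -0.11 to 1.24. Ddit3 ran from -0.30 over 0.28 to 1.02 in HF20 and from 0.19 over 0.48 to 0.74 in HFC over those weeks.

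**Figure D2:**
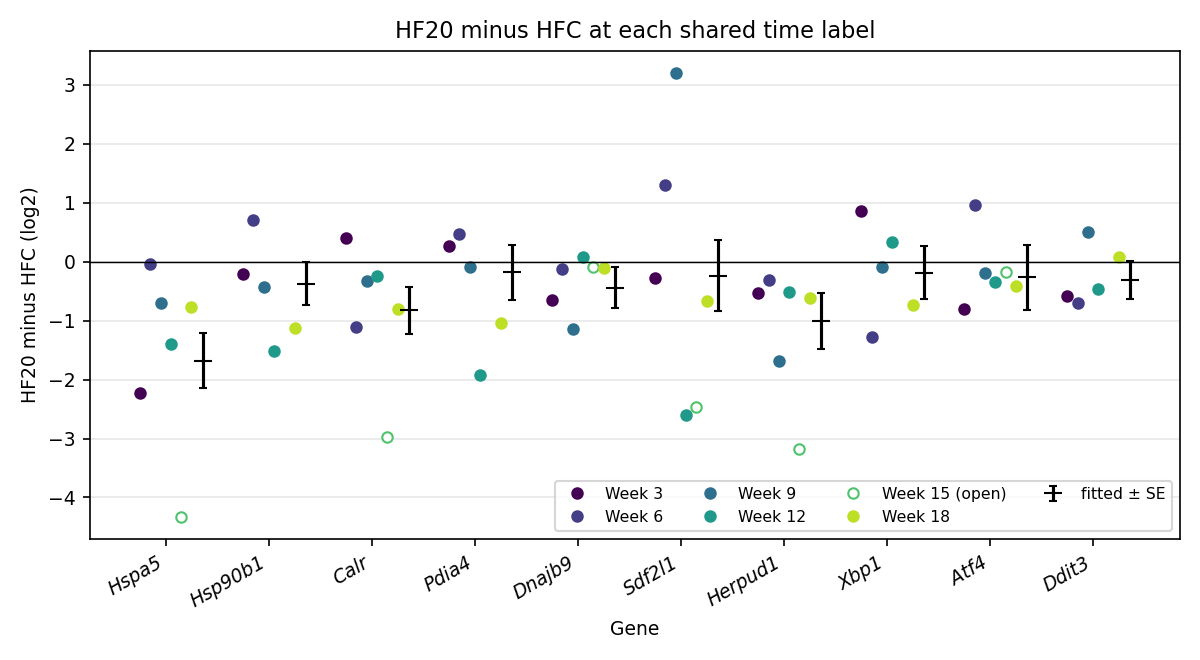
HF20 minus HFC (log2, y axis) for each gene (x axis), with 1 point per shared time label, open points for Week 15, and the fitted difference with its SE in black. All fitted differences lie below 0, Hspa5 at -1.68 lies lowest, and the Week 15 points of Hspa5, Calr and Herpud1 lie far below their other points.

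Over the 10 genes, 10 fitted differences of HF20 from HFC lay below 0, with a median of -0.34. Over all 34043 probes tested, dim ones included, 51.3% lay below 0 and the median was -0.02. Quantile normalization moved that median to -0.17 and the median of the 10 genes to -0.50, with 10 still below 0. Without the Week 15 array 9 of the 10 lay below 0 with a median of -0.33, and 42.3% of all probes did. Without the 3 arrays with many flagged spots 8 did, with a median of -0.23 against 0.12 over all probes, and Pdia4 and Sdf2l1 then stood above 0 at 0.06 and 0.32.

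The HF20 Week 15 array was low for bright probes in general. Over the 6416 of 9854 probes well above background on all arrays that kept a value there, the median gap from the HFC array was -3.08, and 97.4% lay below 0. The 6 stress genes measured there had a median gap of -2.72. Hspa5, at -4.32, lay lower than that array-wide shift, and Dnajb9 and Atf4, at -0.09 and -0.17, did not follow it. On the HF5 Week 12 array the same probes had a median gap of -1.52 and the 7 measured stress genes one of -2.18, here against an HFC array that itself had many flagged spots and little Ucp1. On the other dose arrays the medians over these probes lay between -0.55 and 0.27.

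**Figure D3:**
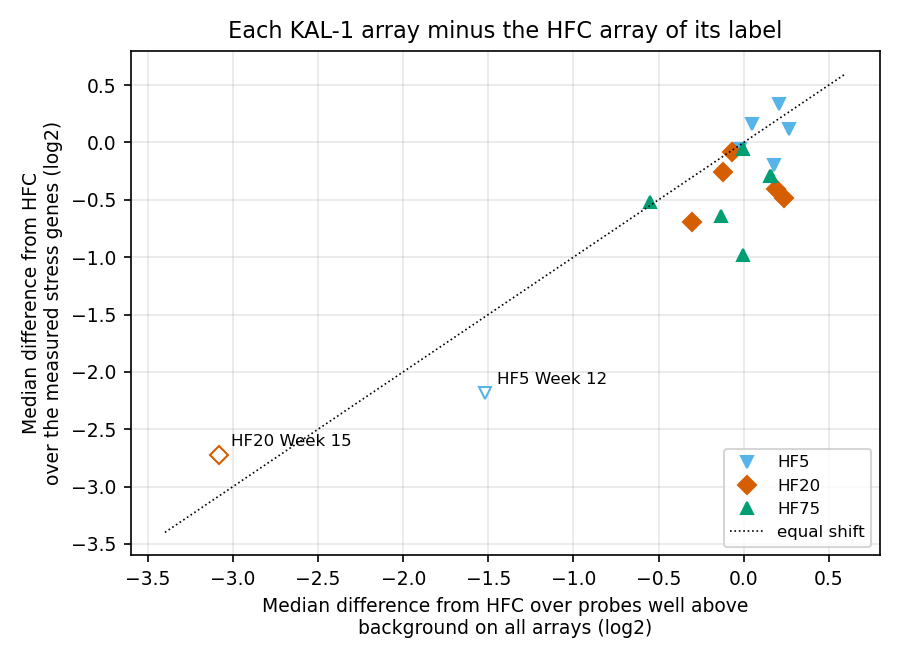
Median difference of each KAL-1 array from the HFC array of its time label, over the probes well above background on all arrays (x axis, log2) and over the stress genes measured (y axis, log2), with 1 point per array, open points for flagged arrays and a dotted line of equal shift. HF20 Week 15 and HF5 Week 12 lie far to the lower left, and the other arrays lie near 0 on the x axis and between -0.98 and 0.33 on the y axis.

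In the other diet comparisons none of the 10 genes passed the test, which was limma with Benjamini-Hochberg adjustment over all probes. The same held for 0% of all 34043 probes in each comparison, so the tests reached no call on any probe at this number of arrays. At an unadjusted p under 0.05, 959 probes differed between HFC and LFC, 498 between HF5 and HFC, 1210 between HF75 and HFC, 1803 between HF5 and LFC and 3606 between HF75 and LFC. The t-test of the methods, applied to the arrays, also called 0 after adjustment in each of these, and 1284, 1539, 2131, 2062 and 3396 before it.

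Between high fat and low fat feeding the fitted differences of the chaperones were smaller than their SE, though gaps at single labels were wide for some. The gaps ran from -1.71 to 1.07 for Hspa5 and from -2.98 to 3.12 for Sdf2l1, and from -0.63 to 0.62 for Calr. HFC minus LFC was -0.23 (SE 0.38) for Hspa5, lower at 5 of 10 labels, -0.21 (SE 0.28) for Hsp90b1 and -0.01 (SE 0.32) for Calr. Over the 10 genes 6 lay below 0, with a median of -0.07 against 0.05 over all probes. Atf4 had the largest difference, 0.93 (SE 0.45, unadjusted p = 0.0477). It rested on 2 LFC arrays, Day 1 at -4.04 and Week 18 at -3.79, where the probe was not well above background, while HFC ran from -0.11 to 2.35. The medians, which those arrays move less, were 0.78 in LFC and 1.22 in HFC.

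The other doses lay nearer to HFC in Hspa5. HF5 minus HFC was -0.33 (SE 0.47) for Hspa5, and HF5 was lower at 2 of 6 labels. That sign rested on the Week 12 array at 3.26, since the difference was 0.14 without the 3 arrays with many flagged spots. HF75 minus HFC was -0.86 (SE 0.47) for Hspa5, with HF75 lower at 5 of 6 labels, and -0.77 without those 3 arrays. Calr was lower in HF75 than in HFC at 6 of 6 labels, where 0.724% of all probes were, though its fitted difference was only -0.42 (SE 0.39). A dimmer probe of Calr gave -0.02 (SE 0.43) in this comparison. Dnajb9 differed by -0.56 (SE 0.35), Xbp1 by -0.67 (SE 0.42) and Herpud1 by -0.44 (SE 0.47). Over the 10 genes 8 lay below 0 in HF75, with a median of -0.39 against 0.05 over all probes, and 7 did in HF5, with a median of -0.11 against -0.03. The 3 dose comparisons share the HFC arrays, so they are not independent of each other.

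**Figure D4:**
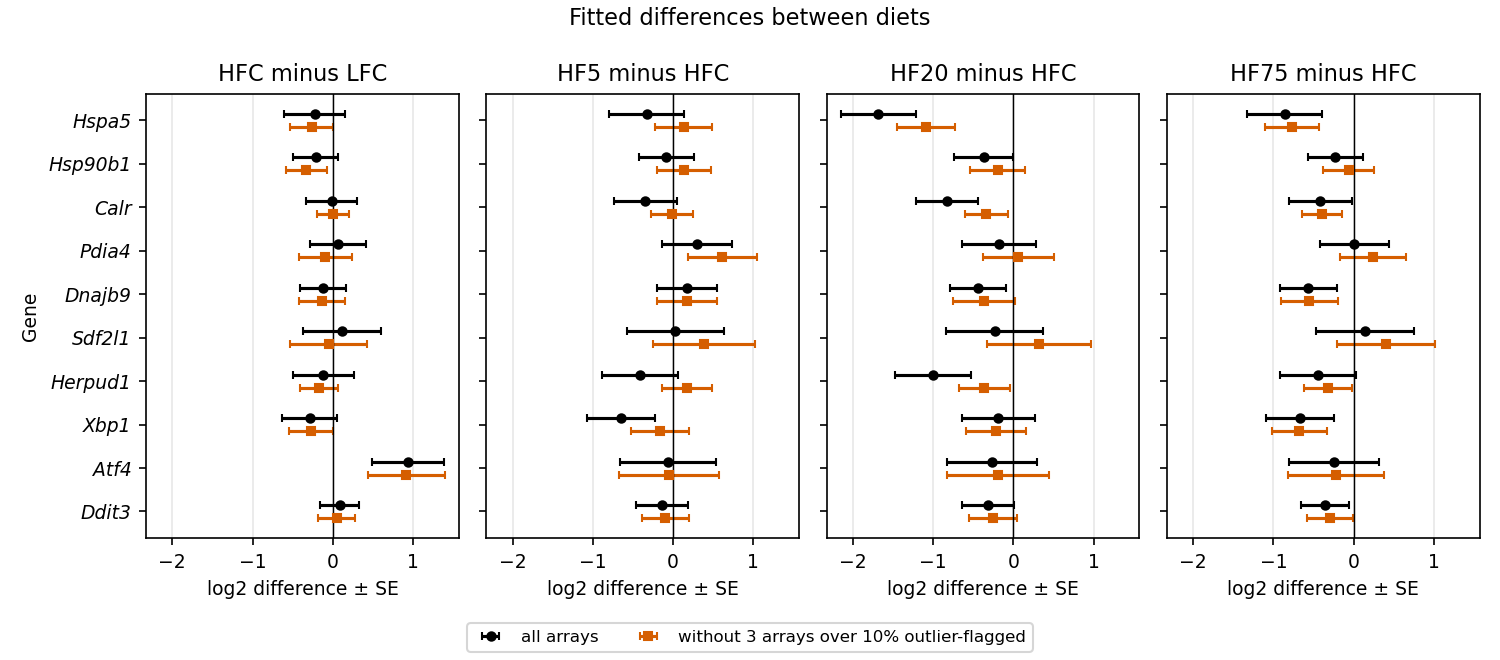
Fitted log2 differences with SE (x axis) for the 10 genes (y axis) in 4 diet comparisons, with all arrays (black circles) and without the 3 arrays with over 10% of spots flagged (orange squares). Hspa5 lies below 0 in HF20 and HF75 in both fits, and in HF5 it moves from -0.33 to 0.14.

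Against the low fat diet, HF75 was lower in Hspa5 at 5 of 5 labels. The levels at Weeks 3, 9, 12, 15 and 18 were 3.98, 3.57, 4.91, 4.97 and 3.94 in HF75 and 5.18, 5.60, 4.95, 5.73 and 6.20 in LFC. Of all probes 4.92% were lower at every label. The fitted difference was -1.09 (SE 0.48), with an unadjusted p of 0.0327 and a limma adjusted p of 0.433, the smallest adjusted p of any of the 10 genes in any comparison without HF20. Xbp1 differed by -0.96 (SE 0.44) between HF75 and LFC and by -0.93 (SE 0.44) between HF5 and LFC, with limma adjusted p of 0.446 and 0.888. Neither passed the test. Xbp1 was lower than in LFC at 3 of 5 labels in HF75 and at 4 of 5 in HF5. The HF5 arrays include that of Week 12, with 18.6% of its spots flagged, where Xbp1 stood at -2.79.

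Time left no call either. The trend over time in LFC and HFC called 0 of 34043 probes by limma and 4057 before adjustment, with a lowest adjusted p of 0.0788, and the lowest of the 10 genes was 0.525, for Dnajb9. The change of the diet effect from the first weeks to the later ones called 0 probes (800 unadjusted). Pdia4 had the largest such change, 1.77 (SE 0.71, unadjusted p = 0.0295), with a limma adjusted p near 1.

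Related genes of the pathway were read from lists made for the purpose, with 0 genes called in any comparison, where 0% of all 34043 probes were. Among 14 further chaperones and folding factors of the lumen, 13 were below 0 in HF20 minus HFC, with a median of -0.71. Without the 3 arrays with many flagged spots 11 were, with a median of -0.12. Of all probes 51.3% and 40.1% lay below 0 in these fits, which is the background for the lists below too. These shares include dim probes, while most listed genes were well above background on nearly all arrays. Over probes well above background on all arrays, the median gap of the HF20 Week 15 array from HFC was -3.08. Shares over such bright probes alone were not computed for these fits, so how far the lists stand apart from them was not tested. Pdia6, a disulfide isomerase, differed by -1.18 (SE 0.53), and calnexin (Canx), the membrane partner of calreticulin, by -0.84 (SE 0.46) with HF20 lower at 6 of 6 labels. Pdia3 alone lay above 0, at 0.71 (SE 0.68). It was also above 0 in HF75 minus LFC, at 1.89 (SE 0.66, limma adjusted p = 0.343).

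Of 9 genes of endoplasmic reticulum degradation, 7 lay below 0 in HF20 minus HFC, with a median of -0.58 that was -0.24 without the 3 arrays with many flagged spots. Syvn1, the ubiquitin ligase Hrd1, had the largest difference, -1.29 (SE 0.51). Of 5 sensors and their processing enzymes 4 did, with a median of -0.32. That median was -0.20 without the Week 15 array, and -0.13 with 3 of 5 below 0 without the 3 arrays. All arrays included, the largest differences were those of Mbtps1, the Golgi protease that cuts Atf6, at -0.74 (SE 0.47), and Atf6 itself at -0.67 (SE 0.34). In HF75 minus LFC, Atf6 differed by -0.91 (SE 0.33) and Eif2ak3 by -0.80 (SE 0.32), both lower at 5 of 5 labels, with limma adjusted p of 0.353 and 0.401. The 10 targets of Atf4 and CHOP that were measured had 7 below 0 and a median of -0.07 in HF20 minus HFC, which was -0.17 without the 3 arrays with many flagged spots, among them Ddit4, an inhibitor of growth signalling, at -0.93 (SE 0.57).

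Chaperones outside the endoplasmic reticulum lay as low as those inside it. All 11 measured cytosolic and mitochondrial chaperones were below 0 in HF20 minus HFC, with a median of -0.95. Without the Week 15 array 9 were, with a median of -0.27, against -0.29 for the 14 further genes of the lumen. In that fit 42.3% of all probes lay below 0. Without the 3 arrays with many flagged spots 10 of the 11 were, with a median of -0.38, against -0.12 for those 14 genes. Hsph1, a cytosolic Hsp110 chaperone, differed by -1.57 (SE 0.67), and Hspb1, a small heat shock protein, by -1.37 (SE 0.59) with HF20 lower at 6 of 6 labels. A lower level of chaperones in HF20 was therefore not seen for the endoplasmic reticulum alone.

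Markers of other cells were read on the same arrays, where the ranges of HF20 and HFC overlapped. No list had a gene called between these diets, but 0% of all 34043 probes were called there. The lack of a call therefore does not show that marker levels were alike. Over Weeks 3 to 18 the mean of 5 endothelial markers had a median of 1.31 in HF20 (0.42 to 3.36) and 2.67 in HFC (1.79 to 3.59). The mean of 3 erythroid markers had a median of 8.06 in HF20 (2.91 to 9.81) and 5.45 in HFC (2.87 to 9.01). For 5 plasma cell markers, which mark secreting cells, the medians were -1.91 in HF20 (-3.54 to -0.63) and -1.23 in HFC (-3.20 to 0.22). The mean of 5 neutrophil markers had a median of 1.02 in HF20 (-3.04 to 5.48) and 0.78 in HFC (-4.78 to 3.18), and all 5 fitted differences lay above 0. The macrophage means had medians of 0.03 and 0.41. Their part in the level of Hspa5 was not tested.

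Over all arrays Hspa5 moved more closely with some of the other genes than with the rest. Correlations of Hspa5 with each of the other 9 genes were computed over 37 to 39 arrays, with two-sided permutation tests of 100000 draws adjusted over the 9. The HF20 arrays, through which Hspa5 was chosen, were among them. The tests set r against 0, while the median r over 8151 genes well above background on all arrays was 0.34. A pass therefore does not set a gene apart from most others. Herpud1 had the highest, r = 0.77 and rho = 0.65, and Calr the next, r = 0.73 and rho = 0.63. For both r the permutation p was 1e-05, the smallest these draws can give, and the adjusted p was 4.5e-05. Without the 2 arrays farthest from the median of Hspa5, HF20 Weeks 3 and 15, r was 0.72 and 0.67, so neither relation rested on them. Xbp1 followed with r = 0.55 (rho = 0.45, permutation adjusted p = 0.00171 for r), then Dnajb9 with r = 0.49 (rho = 0.60, permutation adjusted p = 0.00398). Ddit3 had r = 0.41 (rho = 0.36, permutation adjusted p = 0.0212) and Hsp90b1 r = 0.39 (rho = 0.48, permutation adjusted p = 0.0226), both close to that median of 0.34. Without their 2 farthest arrays Xbp1, Dnajb9, Ddit3 and Hsp90b1 stood between 0.40 and 0.60. Sdf2l1 (r = 0.21, rho = 0.09), Atf4 (r = 0.07, rho = 0.40) and Pdia4 (r = 0.03, rho = 0.17) did not pass for r, with permutation adjusted p of 0.249, 0.746 and 0.873, though the rho of Atf4 did (permutation adjusted p = 0.0215).

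The arrays differ in time, diet and quality, so r was computed again with these taken out. With the 3 arrays with many flagged spots left out, r was 0.58 for Herpud1, 0.52 for Calr and 0.59 for Dnajb9. With the time label means removed as well it was 0.43, 0.37 and 0.57, and with diet means removed in their place 0.44, 0.39 and 0.50. The largest of these permutation adjusted p was 0.0389. Where means were removed, the draws shuffled what was left over all arrays and did not count the fitted means. The p of those settings are thus too small, and whether the relations would pass otherwise was not tested. Hsp90b1 did not pass without the 3 arrays (r = 0.32, permutation adjusted p = 0.0885) or with diet means removed over all arrays (r = 0.34, permutation adjusted p = 0.0532), and Ddit3 did not pass without the 9 arrays titled BA or BAT (r = 0.36, permutation adjusted p = 0.0773). Sdf2l1 passed under quantile normalization (r = 0.41, permutation adjusted p = 0.0272) and without those 9 arrays (r = 0.45, permutation adjusted p = 0.0187). These r fell to 0.01 and 0.10 without the 2 arrays farthest from the median of Hspa5. Each scan day held arrays of 1 time label only, but 6 labels were spread over more than 1 scan day. Differences between scan days within a label were thus not removed.

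**Figure D5:**
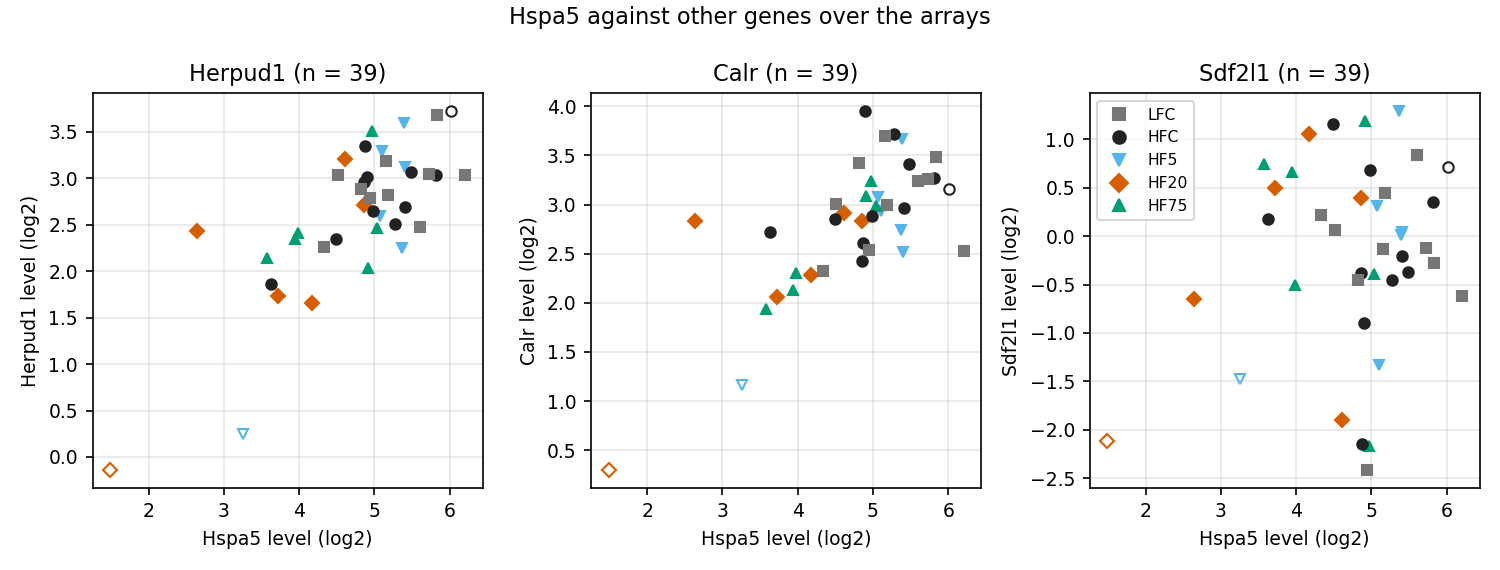
Level of Hspa5 (x axis, log2) against that of Herpud1, Calr and Sdf2l1 (y axes, log2) on 39 arrays, with 1 symbol per diet and open symbols for the 3 arrays with over 10% of spots flagged. Herpud1 and Calr follow Hspa5 (r = 0.77 and 0.73), with HF20 Week 15 at the lower left end, and the relation of Sdf2l1 is weaker (r = 0.21).

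Among 8151 genes well above background on all arrays, the 5 whose level was most like that of Hspa5 by Pearson's r over 39 arrays were Rpn2 (0.88), Tnip2 (0.84), Manf (0.84), 1810013L24Rik (0.83) and Skil (0.82). Rpn2 is a subunit of the enzyme that adds sugar chains to proteins in the endoplasmic reticulum, and Manf is a secreted factor of its stress response. Over the 8151 genes 87.6% had r above 0. The median was 0.34, and it was 0.09 without the 3 arrays with many flagged spots. Rpn2 then still ranked first, at 0.81, and Tnip2 and Manf stood at 0.73 and 0.71. Herpud1 ranked 20 of 8151 with all arrays and 51 without those 3, Calr 72 and 137, and Dnajb9 2150 and 45. With all arrays Ddit3 ranked 3022 and Hsp90b1 3312 of 8151.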

How the data were processed

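The scanner files hold, per the file headers, the intensity of each spot after background subtraction by Agilent Feature Extraction 10.5.1.1 (version 9.1 in the submitters' processing notes), with no scaling between arrays. A deposited table of log2 values, which the authors normalized and, but for Week 6, set against 1 array of each time label (labelled LFC, at Day 14 HFC), served as an alternative.

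The processed signal was taken as log2 minus the array's 75th percentile (18.1 to 3974 units), outlier-flagged spots were dropped, and replicate spots were averaged per probe. To be tested, a probe had to be well above background on 6 or more of the 39 arrays, which left 34043. On the arrays 31.2% to 98.0% of spots were well above background, which limits dim genes. Arrays have no read depth, and their number limits the precision.

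Samples were grouped by the diet in the labels. Differences were fitted with limma 3.58.1 in R 4.3.3, as diet plus time label over all arrays, adjusted by Benjamini-Hochberg at 0.05. The time label is the block, since the labels give the same sampling time. Arrays of one label deviated together weakly (median correlation 0.13 over 61 pairs, against -0.01 over 535 other pairs). The fits were tested on simulated data. Correlations used numpy 2.4.6.

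The genes and lists were chosen with earlier results of these data known. The text names all 10 genes, genes of the other lists with a call or otherwise with the largest differences, the 5 genes most like Hspa5, and markers where an array stands apart. Canx, Atf6, Eif2ak3 and Pdia3 were named after their values were seen. Promoters are those of RefSeq (GRCm38.p6). All 10 genes matched.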

Additional observations from a re-analysis of the deposited data

Results flagged for a closer look

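Within diets of 4 to 10 arrays, 6 of 40 gene and diet sets had 1 array farther from the rest than Dixon's 95% limit allows, where chance gives about 1 in 20. In HF5, Hspa5 stood at 3.26 on the Week 12 array with the nearest array at 5.07, and Xbp1 stood at -2.79 there with the nearest at -0.35. That array had 18.6% of its spots flagged. In HF20, Calr stood at 0.30 on the Week 15 array, which had 71.4% of its spots flagged, with the nearest array at 2.06. In HF75 the Week 15 array was far from the others for 2 genes, with Pdia4 at -1.05 (nearest -0.11) and Herpud1 at 3.51 (nearest 2.47). In LFC, Sdf2l1 stood at -2.41 on the Week 12 array, with the nearest at -0.61. The cause was not tested.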

How the results depend on the processing

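The count of genes lower in HF20 than in HFC stayed between 8 and 10 of 10 under 32 alternatives, and Hspa5 between -2.07 and -1.09. Hspa5 in HF5 minus HFC turned from -0.33 to 0.14 without the 3 arrays with over 10% flagged spots, to 0.10 when the LFC Day 10 array was left out too, and leaving out each time label in turn gave -0.501 to 0.0859, above 0 without Week 12. Counts of called probes were 0 but for the following, none of which was 1 of the 10 genes. For HFC against LFC, quantile normalization called 3, array median scaling 2, leaving out the HF20 Week 12 array 1, leaving out the 9 arrays titled BA or BAT 2, array weights 24 and leaving out the HF20 Week 15 array 1, and leaving out each time label in turn 0 to 1. For HF75 against HFC, leaving out the titled arrays called 3 and array weights 1. For HF75 against LFC, array weights called 7, and leaving out each label 0 to 10. For the trend over time, quantile normalization called 5, a stricter filter on dim probes 5, and leaving out each label 0 to 1. Without the time label as a block, Hspa5 in HF20 minus HFC was -1.48, 0 probes were called, and no call changed. The causes were not tested. Of the correlations of Hspa5 with 9 genes, 6 passed, and 5 to 7 did under 7 alternatives. Where label or diet means were removed, the p behind these counts are too small. Over all arrays 87.6% of 8151 genes had r above 0, and the share of them that would pass was not computed. The leaving out of HF20 Week 15, of the low Ucp1 arrays and of diet means, an exchange of the Day 14 labels, and the correlations without flagged arrays were chosen after the data were seen. The limit is signal over background: Atf4 was not well above it on 2 arrays and Xbp1 on 1.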
